A study of Mus musculus with 20 samples.

Results

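Neurofilaments are the intermediate filaments of neurons, and 4 genes encode the subunits found in the brain. Nefl encodes the light chain, Nefm the medium chain, Nefh the heavy chain and Ina alpha-internexin. The 4 genes were taken by symbol from a table of raw counts per gene and are 4 of its 32245 symbols. All 4 passed the filter on low counts, which left 15373 genes for testing.

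The counts come from RNA bound to ribosomes of mouse hippocampus. Rbp4-Cre and RiboTag were present in every mouse. Where Cre recombines the RiboTag allele, it puts an HA epitope on the ribosomal protein RPL22. Tagged ribosomes were pulled down with anti-HA beads, so the activity of Rbp4-Cre decides which cells contribute, and the labels give these as granule cells. The groups are ages, which also differ in batch as given below: postnatal day 5 (P5, 5 libraries) and P7, P10, P15, P21 and P28 (3 libraries each). The labels name 3 batches, called A, B and C here. Batch A holds 3 of the P5 libraries with those of P10 and P15, batch B the other 2 P5 libraries with those of P7, and batch C those of P21 and P28. Age and batch C cannot be told apart in any comparison of P21 or P28 with an earlier age. Nothing in the labels ties the replicates of an age to separate animals, and the p-values therefore reflect the spread between libraries, which may be technical. In bulk pull-downs, fewer cells of a type and less RNA per cell cannot be told apart.

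Neurofilaments fill the axon and set its caliber. The light chain forms the core of the filament, while the medium and heavy chains add long tails that stand out from it and are heavily phosphorylated in axons. Alpha-internexin joins the same filaments as a further core subunit. In the textbook order of neuronal development, alpha-internexin and the filament proteins of progenitors are present early, the light and medium chains follow, and the heavy chain comes last.

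Total counts per library were 15.9 to 24.9 M, at which 3 counts, the level not distinguishable from 0, equal 0.12 to 0.189 counts per M (CPM). All levels below are CPM after trimmed-mean (TMM) scaling of the library sizes. All 10 granule cell markers stood above 1 CPM at every age, with a summed level of 1442 to 2808 CPM per library. Markers of other cells were present too. The 9 CA pyramidal neuron markers in the table summed to 252 to 915 CPM, the 10 oligodendrocyte markers to 99.2 to 161 at P5 and P7 and 435 to 1815 from P10, and the 8 astrocyte markers to 573 to 1549. The 10 interneuron markers summed to 229 to 320 CPM at P5 and P7 and 379 to 467 from P10, but they changed in both directions. Means at P5 and P28 were 87.3 and 193 CPM for Gad1, 69.0 and 163 for Kcnc1, and 20.3 and 3.57 for Lhx6. Slc32a1, Npy and Tac1 were also lower at P28 than at P5, and Gad2, Pvalb, Sst and Vip were higher. The sum of the 8 neural progenitor markers fell, from 164 to 345 CPM at P5 and P7 to 14.4 to 58.1 from P10. The 8 Cajal-Retzius markers summed to 121 to 168 CPM at P5, 86.6 to 115 at P7 and 15.5 to 25.8 at P21. Among them Reln had a mean of 113 CPM at P5 and 12.4 at P21. Lhx5, with a mean of only 0.795 CPM at P5, was at 0 at P21. The part of these cells in the results was not tested. Rbp4 itself, the gene whose promoter drives Cre, measured 9.53 ± 0.856 CPM at P5 (SD, n = 5) and 10.1 ± 2.53 at P15 (n = 3). In the P7 libraries Sptan1 and Sptbn1, which encode spectrins of the membrane skeleton, took 25628 to 39234 CPM each. They stood at 1575 to 9015 CPM at P5, and these levels are given beside the results they move with.

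In the mm10 assembly with GENCODE release vM21, Nefl and Nefm are neighbors on chromosome 14. Nefl runs from 68083863 to 68089095 on the plus strand in 4 exons. Nefm lies on the minus strand from 68082590 to 68124846. Its transcript Nefm-201 has 3 exons and ends 30187 bases beyond Nefl. A second transcript, Nefm-202, reaches back across the whole of Nefl and shares 1108 exon bases with it on the opposite strand, 32.8% of the exon bases of Nefl. The strand setting of the read counting is not given in the sources used here, so reads from those bases cannot be assigned with certainty. Nefh lies on chromosome 11 from 4938754 to 4948064 on the minus strand in 4 exons. Ina lies on chromosome 19 from 47014698 to 47025327 on the plus strand in 3 exons. No stretch of 50 bases of Nefl-201, Nefm-201, Nefh-201 or Ina-201 occurs in the sense transcripts of any other gene. On the opposite strand, 407 such stretches of Ina occur in transcripts of Nt5c2.

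The heavy chain differs from the other subunits in a tail built of repeats, and the repeats can be seen in its coding sequence. The stretch below is from the GENCODE transcript Nefh-201, coding bases 1545 to 1784 counted from the start codon, printed 5′ to 3′ on the coding strand. Capitals mark the 12-base word with the most copies in the coding sequence.

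Nefh repeat: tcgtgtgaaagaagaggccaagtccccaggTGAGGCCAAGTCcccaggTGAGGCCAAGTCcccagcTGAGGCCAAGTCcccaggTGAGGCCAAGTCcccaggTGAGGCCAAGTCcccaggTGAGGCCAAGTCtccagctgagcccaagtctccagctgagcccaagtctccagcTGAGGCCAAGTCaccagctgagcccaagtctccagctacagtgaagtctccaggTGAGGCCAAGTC

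The word TGAGGCCAAGTC occurs 17 times in the 3270 coding bases of Nefh, all between coding positions 1575 and 2366, and 8 of the copies are in the stretch shown. Of all 12-base words of the Nefh coding sequence, 23.6% occur more than once. The share is 0.618% in Nefl (1629 coding bases), 1.66% in Nefm (2544) and 0.536% in Ina (1503), where no word has more than 2 copies. A read lying wholly inside the repeat can match several places of the same gene. Over 50 bases, 3.80% of the stretches of Nefh-201 were repeated. The treatment of reads with several matches is not given in the sources used here.

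For Ina the RefSeq promoter table (build GRCm38.p6) held an entry. Nefl, Nefm and Nefh had no entry, so Ina is the only member whose promoter is shown. The stretch is its 250 bases upstream of the start site, chr19:47014431-47014680 on the plus strand. Capitals mark the GC box, GGGCGG or CCGCCC on the other strand.

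Ina promoter: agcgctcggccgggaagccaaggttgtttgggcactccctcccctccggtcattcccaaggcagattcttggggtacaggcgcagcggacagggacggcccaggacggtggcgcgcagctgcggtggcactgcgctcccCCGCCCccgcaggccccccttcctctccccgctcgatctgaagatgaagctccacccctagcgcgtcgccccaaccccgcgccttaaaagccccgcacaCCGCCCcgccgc

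The GC box occurred 2 times, starting at -111 and -12 from the start site. Of 32851 promoter windows of this length in the table, 32.7% hold it. TATAAA and CCAAT were not found on either strand, and 12.4% and 33.8% of the windows hold them. CANNTG, the E-box, which reads alike on both strands, occurred 1 time, at -135, and 66.2% of the windows hold it. G and C made up 70.8% of the bases, against a median of 52.4% over all windows. These are letters in a window and describe no binding.

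The 3 neurofilament chains rose several-fold between P5 and P10 and had lower means at each later age, with P28 at 64.4% of the P10 mean for Nefl, 68.2% for Nefm and 76.4% for Nefh. Ina had no called rise in this fit and was lowest at P28, at 73.2% of its P10 mean. Over the 6 ages all 4 genes differed in edgeR's quasi-likelihood test, with adjusted p = 2.7e-12 for Nefl, 1.2e-05 for Nefm, 5.4e-08 for Nefh and 2.6e-06 for Ina. Of all genes tested, 79.7% were called in that test, so a call by itself says little. The fitted ages of Nefh spanned 2.72 on the log2 scale, more than in 92.2% of genes. The spans were 1.90 for Nefm (82.9% of genes had a smaller one), 1.65 for Nefl (78.5%) and 0.45 for Ina (23.7%). All 4 had their highest fitted age at P10. The lowest was P5 for the 3 chains and P28 for Ina.

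**Figure D1:**
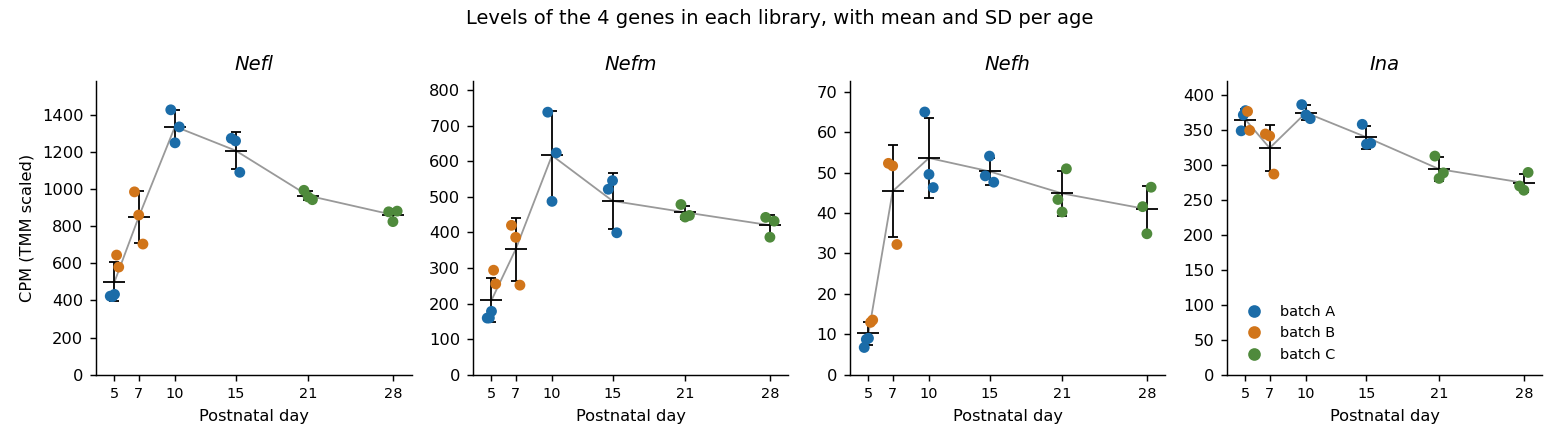
CPM of the 4 genes in each library against postnatal day, with the batch as color, a horizontal bar for the mean and whiskers for the SD of each age. The means of the chains are highest at P10 and lower at each later age, and Ina stays between 263 and 386 CPM in all 20 libraries.

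Nefl, the core subunit, was the most abundant of the 4 at every age. Its CPM was 423, 421 and 433 in the P5 libraries of batch A and 645 and 580 in those of batch B. It was 985, 860 and 704 at P7, 1428, 1250 and 1336 at P10, and 1274, 1260 and 1091 at P15. It was 994, 958 and 943 at P21 and 878, 825 and 882 at P28. Every P5 library was below every later one, and the P10 and P15 libraries overlapped each other but no other age. The mean was 500 ± 105 CPM at P5 (SD, n = 5) and 850 ± 141 at P7 (n = 3), peaked with 1338 ± 89.0 at P10, and was 1208 ± 102, 965 ± 25.9 and 862 ± 31.6 at the 3 later ages. Ranked by mean CPM among all symbols, Nefl moved from place 196 at P5 to 47 at P10 and 108 at P28.

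Nefm, the medium chain, also had its lowest mean at P5 and its highest at P10, at a lower level than Nefl. Its CPM was 159, 160 and 178 in the P5 libraries of batch A and 294 and 255 in batch B. It was 420, 386 and 252 at P7, 738, 487 and 624 at P10, and 521, 545 and 399 at P15. It was 478, 443 and 448 at P21 and 442, 386 and 432 at P28. P7 replicate 3 lay below a P5 library of batch B, so these ages overlapped, while no library from P10 on reached down to a P5 level. The mean went from 209 ± 61.6 CPM at P5 (n = 5) through 353 ± 88.9 at P7 (n = 3) to 616 ± 126 at P10, and was 420 ± 29.6 at P28, where every library lay below every P10 library.

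Nefh, the heavy chain, had the fewest counts of the 4 at every age. Its CPM was 6.73, 8.74 and 9.03 in the P5 libraries of batch A and 12.9 and 13.5 in batch B, from 117 to 274 counts per library. It was 52.3, 51.7 and 32.2 at P7, 65.0, 49.6 and 46.3 at P10, and 49.2, 54.1 and 47.6 at P15. It was 43.4, 40.3 and 50.9 at P21 and 41.6, 34.9 and 46.4 at P28. All P5 libraries were below all others, and P7 overlapped each of the later ages. The mean was 10.2 ± 2.92 CPM at P5 (n = 5), 45.4 ± 11.4 at P7 (n = 3), 53.6 ± 9.99 at P10 and 40.9 ± 5.78 at P28. In the ranking of all symbols it moved from place 9451 to 4611 between P5 and P7 and reached 4209 at P10.

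Ina, the further core subunit, had its highest mean at P10 as well, but at P5 it was close to that level. Its CPM was 348, 371 and 377 in the P5 libraries of batch A and 376 and 349 in batch B. It was 344, 341 and 287 at P7, 386, 371 and 366 at P10, and 358, 329 and 331 at P15. It was 312, 280 and 288 at P21 and 270, 263 and 289 at P28. The P5 libraries overlapped those of P10 and those of P15, and every P21 and P28 library lay below all of these. The mean was 364 ± 14.5 CPM at P5 (n = 5) and 274 ± 13.3 at P28 (n = 3), and the place in the ranking went from 325 to 690.

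The P5 libraries themselves differed between batches. Nefl was higher in batch B than in batch A by 0.52 on the log2 scale (SE 0.10, adjusted p = 0.0012 in edgeR) and Nefm by 0.73 (SE 0.20, adjusted p = 0.035). Nefh differed by 0.70 (SE 0.25, adjusted p = 0.094) and Ina by -0.01 (SE 0.07, adjusted p = 0.95). Of all genes 10.1% were called in this comparison, against 2 of the 4 members. The fit carries a term for batch B, so P10 and later ages are compared in effect with P5 of batch A, and P7 with P5 of batch B.

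From P5 to P7, Nefh rose by 1.78 on the log2 scale, a 3.42-fold change (SE 0.22, adjusted p = 0.00016), and Nefl by 0.47 (SE 0.10, adjusted p = 0.0028). Nefm changed by 0.36 (SE 0.20, adjusted p = 0.30) and Ina by -0.16 (SE 0.07, adjusted p = 0.16), neither past the threshold of 0.05. Thus 2 of 4 members were called in a comparison that called 11% of genes. By p-value, Nefh was at place 112 of the 15373 genes. The Nefl call was lost with the batch B libraries fitted alone (0.47, adjusted p = 0.075) and without P5 batch B replicate 3 (0.40, adjusted p = 0.058), and with no batch term the change was 0.76 (adjusted p = 0.00025).

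The P7 libraries are also those with the very high spectrin counts. Sptan1 measured 6254 and 7269 CPM in the P5 libraries of batch B and 39234, 39134 and 25712 at P7, and P7 replicate 3, the lowest of the 3 in Sptan1, was also the lowest in all 4 members. With the mean log2 level of Sptan1 and Sptbn1 of each library added to the fit, an alternative chosen after seeing the data, the Nefh change from P5 to P7 was 0.81 and that of Nefl 0.29 (both adjusted p = 1.0). Under that covariate edgeR called 0 genes from P5 to P7, and 675 (4.39%) had an unadjusted p below 0.05. Inside batch B the P5 and P7 libraries did not overlap in Sptan1 or Sptbn1. The fit can therefore hardly tell the spectrin level from age, and the loss of the calls decides nothing. The same limit holds below for P10, P15 and P28, whose libraries did not overlap those of P5 batch A in either gene. The part of the spectrin level in these changes was not tested further.

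From P7 to P10 all 3 chains rose. Nefm rose by 1.54 (SE 0.27, adjusted p = 0.00048), Nefl by 1.18 (SE 0.13, adjusted p = 3.3e-07) and Nefh by 0.94 (SE 0.30, adjusted p = 0.022), while the change of Ina was 0.20 (SE 0.10, adjusted p = 0.11). Of all genes 42.8% were called. This step crosses from batch B to batch A and rests on the batch term. Without it the rises were smaller, 0.81 for Nefm (adjusted p = 0.013) and 0.65 for Nefl (adjusted p = 0.000981). The change of Nefh was then 0.24 (adjusted p = 0.37) and not called, and Ina, at 0.21, was called (adjusted p = 0.015). The Nefh call was also lost with limma-voom (0.98, adjusted p = 0.059).

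From P5 to P10, inside batch A, Nefh rose by 2.72 (a 6.56-fold change, adjusted p = 2.5e-08), Nefm by 1.90 (adjusted p = 6.9e-07) and Nefl by 1.65 (adjusted p = 4.1e-13). Ina changed by 0.03 (adjusted p = 0.67), and its sign depended on the scaling of the libraries. With the spectrin covariate the Nefh change was 1.84 (adjusted p = 0.00056). The calls covered 3 of 4 members and 61.4% of all genes.

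No single step after P10 changed a chain by as much as the rises before it. The P28 libraries of Nefl and of Nefm lay below all those of P10, while those of Nefh overlapped. P28 was not tested against P10, and the pair crosses from batch A to batch C. The share of all genes whose libraries separate in this way was not counted. From P10 to P15 no member passed the threshold, with changes of -0.15 for Nefl, -0.34 for Nefm, -0.09 for Nefh and -0.14 for Ina (adjusted p = 0.22 to 0.82), and 4.36% of all genes were called. From P15 to P21 Nefl fell by 0.32 (SE 0.09, adjusted p = 0.0066) and Ina by 0.21 (SE 0.07, adjusted p = 0.019), while Nefm (-0.10) and Nefh (-0.17) did not pass. This step called 28.8% of genes and crosses from batch A to batch C. The Ina call was lost without P15 replicate 1, P21 replicate 2 or P21 replicate 3 (adjusted p = 0.055 to 0.093). From P21 to P28, inside batch C, the changes were -0.16, -0.12, -0.13 and -0.10 for Nefl, Nefm, Nefh and Ina (adjusted p = 0.44 to 0.83). That step called 39 genes in all, 0.254%.

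**Figure D2:**
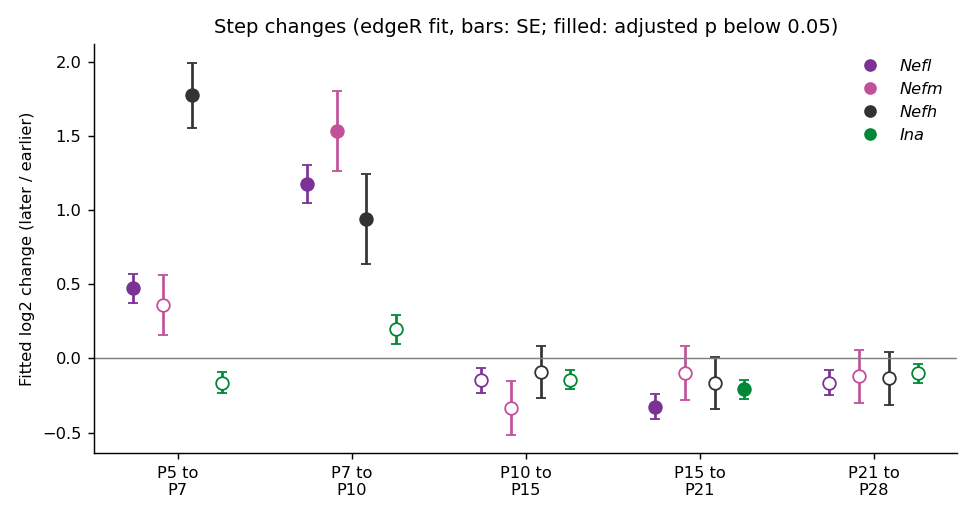
Fitted log2 change of each gene between neighboring ages, with the SE as bars and filled points where the adjusted p of edgeR is below 0.05. The 5 filled points of the first 2 steps are the rises of Nefl and Nefh from P5 to P7 and of all 3 chains from P7 to P10, and the 2 filled points below 0 are Nefl and Ina from P15 to P21.

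Between P5 and P15, the longest span within a batch, Nefh rose 6.16-fold (log2 change 2.62, SE 0.21, adjusted p = 2.8e-08). Nefm rose 2.95-fold (1.56, SE 0.19, adjusted p = 4.1e-06) and Nefl 2.84-fold (1.51, SE 0.09, adjusted p = 1.3e-12). Ina changed by -0.11 (95% interval -0.25 to 0.03, adjusted p = 0.15). In this comparison 3 of 4 members and 63.4% of all genes were called. The size of the 3 rises can be set beside the 95th percentile of all genes tested, a log2 change of 1.37. With the spectrin covariate the change of Nefm was 1.25 and no longer called (adjusted p = 0.088), and the change of Nefh was 1.60 (adjusted p = 0.0054). Scaling by total counts gave -0.23 for Ina (adjusted p = 0.00078), which was then called, and so did the stricter filter on low counts (-0.16, adjusted p = 0.023).

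By P28 all 4 were called against P5, together with 71.6% of all genes. Nefh was higher by 2.32 (adjusted p = 9.1e-08), Nefm by 1.34 (adjusted p = 1.4e-05) and Nefl by 1.02 (adjusted p = 5.5e-10), while Ina was lower by 0.42 (SE 0.07, adjusted p = 4.4e-06). Since P28 is in batch C alone, age and batch cannot be told apart here. With the spectrin covariate the Nefm change was 1.03 and not called (adjusted p = 0.12), that of Nefh was 1.31 (adjusted p = 0.012) and that of Ina -0.63 (adjusted p = 0.0062).

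Ratios between members inside a library do not depend on how libraries are scaled. The ratio of Nefh to Ina counts was 0.0281 ± 0.00819 at P5 (SD, n = 5) and 0.149 ± 0.0139 at P15 (n = 3). It was already 0.139 ± 0.0227 at P7 and 0.149 ± 0.0148 at P28. The ratio of Nefl to Ina counts was 1.37 ± 0.288 at P5 and 2.62 ± 0.219 at P7, then 3.57 ± 0.180, 3.56 ± 0.263, 3.29 ± 0.118 and 3.15 ± 0.104 at the later ages. The ratio of Nefm to Ina counts went from 0.574 ± 0.168 at P5 to 1.44 ± 0.225 at P15 and 1.53 ± 0.0934 at P28. In all 3 ratios no P5 library reached the level of any later library.

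The chains also changed unequally among themselves. There were 50.2 ± 7.40 Nefl counts for each Nefh count at P5, 19.1 ± 2.61 at P7, 24.02 ± 1.62 at P15 and 21.2 ± 2.33 at P28. The ratio of Nefm to Nefh counts went from 20.6 ± 2.37 at P5 to 7.77 ± 0.279 at P7 and 9.68 ± 1.16 at P15. The ratio of Nefl to Nefm counts was 2.44 ± 0.209 at P5 and 2.50 ± 0.217 at P15. This difference of 0.03 on the log2 scale was within the spread of the libraries (exact permutation test, two-sided, p = 0.68, adjusted 0.68). At P28 their ratio was 2.05 ± 0.0755, a difference from P5 of -0.24. The P5 value pools 2 batches, with a ratio of 2.58 ± 0.126 in batch A (n = 3) and 2.23 in batch B (n = 2). P28 is in batch C alone, so age and batch cannot be told apart in this difference. For the other 11 of 12 comparisons (6 ratios, P15 and P28 against P5) the libraries did not overlap, and each reached p = 0.036 in the exact permutation test, the smallest that 5 against 3 libraries allow (adjusted p = 0.039). With 1 library left out the direction of these 11 held. Their adjusted p in that test then went up to 0.10, since fewer libraries cannot pass the threshold. The ratios share members, so the 11 are not independent of each other. How often the ratios of other gene pairs separate these ages was not counted. Of all genes, edgeR called 63.4% from P5 to P15 and 71.6% from P5 to P28, so the count of 11 by itself says little.

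The P5 batches differed in these ratios as well, so the values inside batch A are given beside the pooled ones. In batch A at P5 the ratio of Nefl to Ina was 1.17 ± 0.0432 (n = 3), that of Nefm to Ina 0.453 ± 0.0214 and that of Nefh to Ina 0.0223 ± 0.00255. In batch B at P5 they were 1.69, 0.756 and 0.0367 (n = 2). The P15 values above are all from batch A, and in each case they lay above both P5 batches. With 3 libraries against 3 the smallest p is 0.1, so the difference inside batch A cannot pass the threshold.

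**Figure D3:**
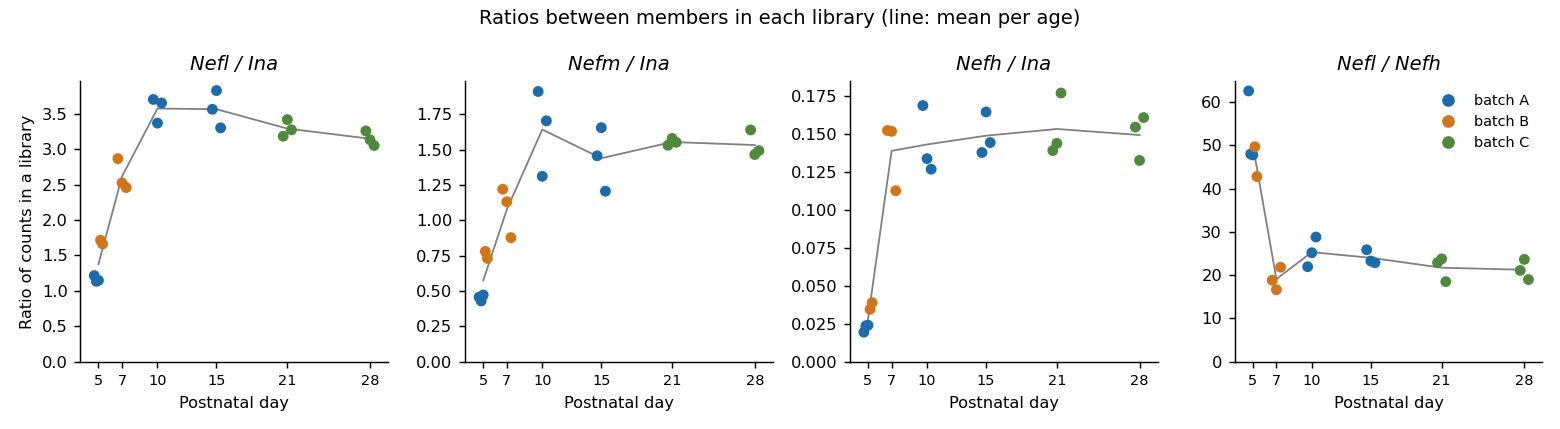
Ratio of the counts of 2 members in each library against postnatal day, colored by batch, with a line through the means. The ratios to Ina are lowest at P5, and the ratio of Nefl to Nefh drops from 50.2 to 19.1 between P5 and P7 and stays low.

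Levels of different genes can be compared only per length. With the union of all exons as length (3380 bases for Nefl, 5782 for Nefm, 3994 for Nefh and 3240 for Ina), the 4 genes summed to 299 CPM per kilobase at P5 and 424 at P7, then to 631, 559, 466 and 422 at the following ages. On that scale Nefl made up 49.1 ± 3.31% of the sum at P5 (n = 5), 62.7 ± 1.03% at P10 (n = 3) and 60.4 ± 0.548% at P28. Ina went from 38.1 ± 5.13% at P5 through 23.8 ± 1.72% at P7 to 18.4 ± 1.21% at P10 and 20.02 ± 0.586% at P28. At P5 the order was thus Nefl, Ina, Nefm, Nefh.

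Nefm made up 11.9 ± 1.77% of the sum at P5, 15.04 ± 1.30% at P15 and 17.2 ± 0.567% at P28. Nefh made up 0.841 ± 0.143% at P5, 2.66 ± 0.317% at P7 and 2.42 ± 0.243% at P28. The Nefm share depends on the length used, since the union counts the exons of Nefm-202. With the length of Nefm-201 it was 18.9% at P5, 23.5% at P15 and 26.5% at P28, and Nefm then stood above Ina from P7 on. With the union length the Ina share exceeded the Nefm share at each age.

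The other intermediate filament genes give the setting. Of the 9 tested, 2 rose and 6 fell from P5 to P15 (median log2 change -0.43, against -0.02 for all genes). Nes, which encodes nestin, the filament protein of neural progenitors, was 30.6 ± 3.44 CPM at P5 (n = 5), 36.4 ± 3.15 at P7 (n = 3), 5.38 ± 1.76 at P10 and 1.88 ± 0.295 at P28. Vim, the gene of vimentin, found in progenitors and glia, was 42.2 ± 4.25 CPM at P5, 44.4 ± 2.03 at P7, 8.59 ± 1.01 at P10 and 5.18 ± 1.08 at P28. From P5 to P15 Nes fell by 2.72 on the log2 scale (SE 0.17) and Vim fell by 2.51 (SE 0.11). In the step from P7 to P10, in which Nefl, Nefm and Nefh rose, both fell by 2.59 on the log2 scale (edgeR adjusted p = 4.8e-08 for Nes and 1.3e-10 for Vim).

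Lmnb1, a nuclear lamin gene, fell by 2.10 (SE 0.09) from P5 to P15, while Lmna, another lamin gene, rose by 0.26 (SE 0.08, adjusted p = 0.010). Gfap, the astrocyte filament gene, rose by 0.51 (SE 0.21, adjusted p = 0.048) and was highest at P7 with 164 ± 8.22 CPM. Prph, which encodes peripherin of peripheral neurons, measured 7.20 ± 1.55 CPM at P5 and 7.85 ± 3.55 at P15 (log2 change 0.25, adjusted p = 0.55). With total-count scaling neither rise in this list was called. Like Nes and Vim, the summed progenitor markers, which include Nes, were lower at P10 (37.6 to 58.1 CPM) than at P7 (164 to 209). The summed astrocyte markers, which include Gfap, were highest at P21 (1269 to 1549 CPM) and not at P7 (864 to 1068). Slc1a2 made up most of that sum, with a mean of 611 CPM at P7 and 1083 at P21. Gjb6 and S100b were also higher at P21 than at P7. Aqp4, Aldh1l1, Slc1a3 and Fgfr3, like Gfap, had their highest mean at P7.

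**Figure D4:**
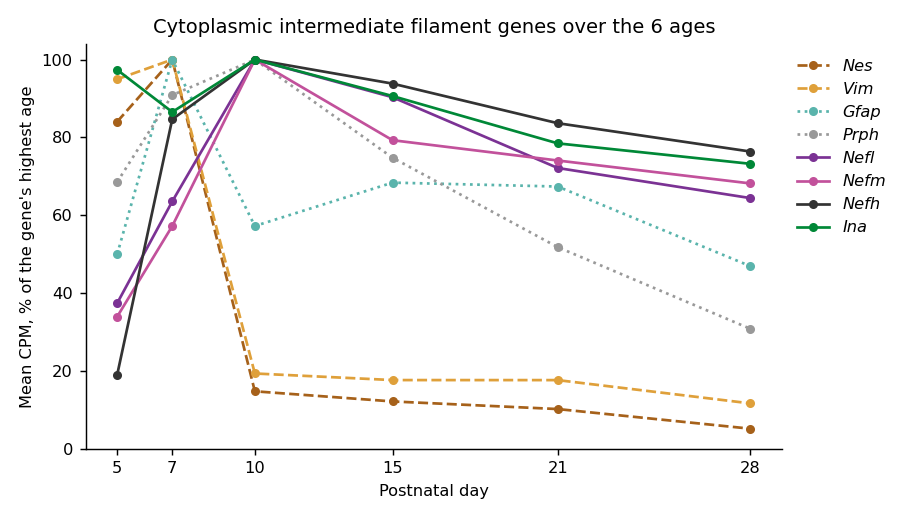
Mean CPM of 8 intermediate filament genes against postnatal day, each as a percentage of its highest age. Nes and Vim drop to under 20% between P7 and P10 while Nefl, Nefm and Nefh climb to their highest value, and Ina stays at 73% or more throughout.

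Among genes that act on neurofilaments, those for kinases and phosphatases of their tails changed in both directions. Of 20 tested, 13 rose and 6 fell from P5 to P15 (median 0.23), where 4856 of all 15373 genes rose and 4891 fell. From P5 to P28, 9 rose and 7 fell (median 0.06), and from P15 to P21, 3 rose and 7 fell. Mapk10, the neuronal JNK3 gene, rose by 0.73 (SE 0.05) and Mapk8, the JNK1 gene, fell by 0.84 (SE 0.07). Cdk5r1, the p35 activator of Cdk5, fell by 0.13 (SE 0.05, adjusted p = 0.028).

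Of 13 linker and motor genes, 9 rose and 3 fell from P5 to P15 (median 0.27). Plec, which encodes the cytoskeletal linker plectin, rose by 2.11 (SE 0.23), and Dst, the gene of the linker dystonin, by 0.99 (SE 0.23). Both had their highest mean at P7, 724 CPM for Plec and 3493 for Dst, the age of the highest spectrin counts. Kif5a, the kinesin motor gene linked to neurofilament transport, rose by 0.70 (SE 0.10) and Klc2, a kinesin light chain gene, by 0.61 (SE 0.06). The dynein genes Dync1h1 and Dync1i1 fell by 1.41 (SE 0.20) and 0.20 (SE 0.07).

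Of 9 tested genes for turnover and chaperones 3 rose and 3 fell (median -0.05). Trim2, a ubiquitin ligase gene whose product targets the light chain, rose by 0.44 (SE 0.06) from 242 ± 13.8 CPM at P5 (n = 5) to 333 ± 4.30 at P15 (n = 3). Capn2, a calpain gene, fell by 1.27 (SE 0.11), and Stub1, a chaperone-linked ligase gene, rose by 0.15 (SE 0.05). Total-count scaling left 1 of the 3 rises. Of 8 genes for proteins that bind neurofilament mRNA, 1 rose and 5 fell (median -0.22). Pcbp1 rose by 0.28 (SE 0.05) and Elavl3 fell by 0.46 (SE 0.05).

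Of 18 axon growth genes 17 fell and 1 rose from P5 to P15 (median -1.73). Gap43, the growth-associated protein gene, went from 718 ± 129 CPM at P5 (n = 5) to 146 ± 49.4 at P15 (n = 3), a log2 change of -2.18 (SE 0.41). Dcx, a microtubule-binding protein gene of young neurons, fell by 3.68 (SE 0.09) and Crmp1, a semaphorin signaling gene, by 1.62 (SE 0.06). Tagln3 was the 1 that rose, by 0.44 (SE 0.06).

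Of 18 genes of the axon initial segment and spectrin skeleton, 13 rose and 3 fell from P5 to P15 (median 0.44). Cntnap1, which encodes a protein of the junction beside the node of Ranvier, rose by 3.18 (SE 0.10), from 27.2 ± 9.09 CPM at P5 (n = 5) to 187 ± 8.47 at P15 (n = 3). Scn8a, a sodium channel gene, rose by 1.098 (SE 0.06), L1cam, an axonal adhesion gene, fell by 2.14 (SE 0.14), and Trim46 fell by 0.24 (SE 0.05). Of 12 genes of mature microtubules and axonal transport, 6 rose and 2 fell (median 0.22), and with total-count scaling 4 fell. Tppp, a microtubule-stabilizing gene, rose by 1.72 (SE 0.08), Tuba4a by 1.26 (SE 0.07) and Map1a by 1.19 (SE 0.10). Mapt, the tau gene, fell by 1.99 (SE 0.07), from 1921 ± 83.9 to 477 ± 9.71 CPM, and Map6 fell by 0.95 (SE 0.10).

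The genes with a course most like that of each member were sought by Pearson's r of log2 CPM over the 20 libraries among 9265 genes with a mean of at least 10 CPM. The libraries of an age are not independent points for such a likeness, so r is a description. For Nefl they included Spata2l (0.98), Egr1 (0.97), Nefm (0.97) and Thy1 (0.97). Thy1 encodes a neuronal surface glycoprotein and Egr1 a transcription factor induced by activity. For Nefm they were Myrip (0.97), Ckmt1 (0.97), Nefl (0.97), Thy1 (0.97) and Syn1 (0.97), the last a synaptic vesicle gene.

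For Nefh the 5 were Speg (0.96), Iqsec3 (0.95), Pls3 (0.95), Ppfia4 (0.95) and Pakap (0.95). For Ina they were Rab10, a small GTPase gene (0.91), Adam23 (0.90), Lrrc8b (0.90), Zfp282 (0.90) and Smap1 (0.90). None of these 5 for Ina is among the lists of the other 3. Over the 20 libraries r between Nefl and Nefh was 0.93 and between Nefm and Nefh 0.92. Between Ina and Nefl, Nefm and Nefh it was -0.09, -0.14 and -0.32, while for the deviations of libraries from the mean of their age and batch it was 0.77, 0.72 and 0.72. The choice of the 5 was not stable. Over the 9 libraries of batch A alone none of the 5 was again among the first 5 for any member.

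The spread between libraries of an age had companions that were measured too. At P10, Nefm was 738, 487 and 624 CPM in replicates 1, 2 and 3, and the summed CA pyramidal markers were 915, 310 and 749 CPM in the same libraries. Gap43 was 438, 140 and 468 CPM there. At P15, Nefm was 521, 545 and 399 CPM and the CA pyramidal sum 458, 521 and 338. In both ages the library lowest in Nefm was lowest in the CA pyramidal sum. The same held at P21 (Nefm 478, 443 and 448 CPM, sum 378, 252 and 433). It held at P28 too (Nefm 442, 386 and 432 CPM, sum 481, 281 and 441). At P7 this was not so. Replicate 3, lowest in Nefm with 252 CPM, had a CA pyramidal sum of 465. Replicate 1, highest in Nefm with 420, had 462. For the deviations of libraries from the mean of their age and batch, r between Nefm and the sum was 0.66. It was 0.44 for Nefl, 0.52 for Nefh and 0.35 for Ina. With the log2 of that sum added to the fit, an alternative chosen after seeing the data, the change of Nefm from P5 to P15 was 1.61 and no call of the 4 members changed.

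Nefh and Sptan1 can be set side by side in the same way. The P5 libraries of batch A had 1575 to 1947 CPM of Sptan1 and 6.73 to 9.03 of Nefh, and those of batch B 6254 to 7269 and 12.9 to 13.5. The P7 libraries had 25712 to 39234 CPM of Sptan1 and 32.2 to 52.3 of Nefh. From P10 on, Sptan1 was between 5429 and 20763 CPM and Nefh between 34.9 and 65.0. P10 replicate 3 had 5429 CPM of Sptan1, below both P5 libraries of batch B, and 46.3 CPM of Nefh. Between Nefh and the mean log2 level of Sptan1 and Sptbn1, r was 0.73 over the 20 libraries. For the deviations from the mean of age and batch it was 0.59. The part of the spectrin level in the Nefh level was not tested.

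**Figure D5:**
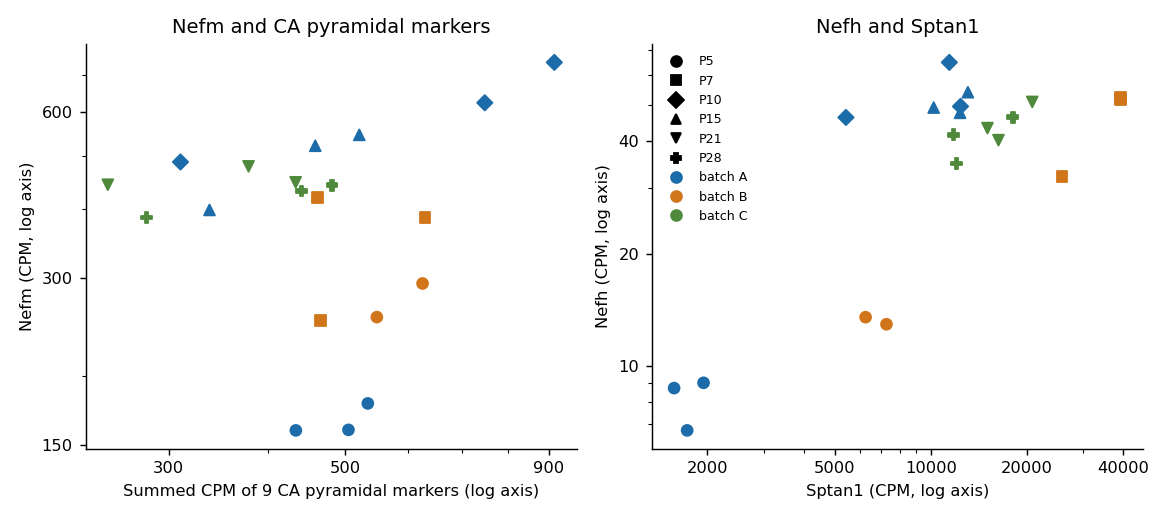
Left, Nefm against the summed CPM of 9 CA pyramidal markers, and right, Nefh against Sptan1, with 1 point per library, symbols for age, colors for batch and log axes. At P10 the libraries with more CA pyramidal marker counts have more Nefm. Nefh and Sptan1 are both lowest in the P5 libraries of batch A, and P10 replicate 3 combines 5429 CPM of Sptan1 with 46.3 of Nefh.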

How the data were processed

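Counts of 20 libraries of poly-adenylated, ribosome-bound RNA were used as deposited: raw counts per gene symbol, with no normalization by the authors, of which 8790 of 32245 symbols were 0 throughout. The submitters' processing notes name STAR 2.7.5b, SAMtools 1.10, featureCounts and the mm10 build. Annotation, strand setting and treatment of reads with several matches: not given in the sources used here. The labels gave age and batch.

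The whole table was fitted with edgeR 4.0.16 (R 4.3.3): TMM factors, the default filter by age (15373 genes), robust quasi-likelihood fits with a mean per age and a term for batch B (13 residual degrees of freedom), and Benjamini-Hochberg adjustment over all genes tested at 0.05. SEs were derived from the F statistics. DESeq2 1.42.0 and limma-voom (limma 3.58.1) were alternatives, with other scalings, filters and batch settings, a replicate block and each library left out. Log2 CPM for likeness used a prior count of 0.5. Ratios were compared with exact permutation tests, adjusted over 12 values (scipy 1.17.1). The fit was tested on simulated counts.

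The members, gene lists, tests and alternatives were chosen with earlier results of these data known, so counts over a list are descriptions. Named from each list were the 2 genes with the smallest p called higher and the 2 called lower from P5 to P15. To these came the panel Nes, Vim, Gfap, Prph, Trim2, Kif5a, Cdk5r1, Mapt, Map1a, Gap43, Dst and Rbp4, and the 5 genes most like each member. Some genes that this rule names are not reported here. Sptan1, Sptbn1 and the CA pyramidal marker values by library were chosen after their values were seen. Same-numbered libraries deviated together no more than others (median correlation of deviations -0.005 over 57 pairs, against 0.02 over 114 pairs of different number), so the numbers were not taken to pair the samples. Libraries of the same age all differed by more than sampling noise.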

Additional observations from a re-analysis of the deposited data

How the results depend on the processing

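Changes of the members kept their direction and their side of the threshold in 309 of 320 fits under other scalings, filters, tools and batch settings and in 710 of 720 fits with 1 library left out. Many of the 720 left out a library of an age outside the comparison, which enters it only through what the fit shares across ages. With the batch B libraries alone Nefl from P5 to P7 was 0.47 and not called. Without the batch term Nefm from P5 to P7 was 0.75 and Ina from P7 to P10 was 0.21, both called, while Nefh from P7 to P10 was 0.24 and Nefl from P15 to P21 was -0.32, neither called. With total counts Ina from P5 to P7 was -0.27 and Ina from P5 to P15 was -0.23, both called, and Ina from P5 to P10 was -0.10. With the stricter filter these last 2 were -0.16, called, and -0.032. With limma-voom Nefh from P7 to P10 was 0.98, not called. With the spectrin covariate Nefl from P5 to P7 was 0.29, Nefh from P5 to P7 was 0.81, Nefm from P5 to P15 was 1.25 and Nefm from P5 to P28 was 1.03, none called, Ina from P5 to P10 was -0.15 and Nefh from P21 to P28 was 0.081. With the CA pyramidal covariate Nefh from P10 to P15 was 0.038 and Nefm from P15 to P21 was 0.024. Both covariates were chosen after seeing the data. In the comparisons with P5 the spectrin level can hardly be told from age, as stated above. With 1 library left out, values ran from 0.36 to 0.59 for Nefl from P5 to P7, 0.739 to 1.046 for Nefh from P7 to P10, -0.19 to 0.064 for Nefh from P10 to P15 (above 0 without P10 replicate 1), -0.0044 to 0.056 for Ina from P5 to P10, -0.17 to -0.086 for Ina from P5 to P15 (called without P15 replicate 1) and -0.26 to -0.16 for Ina from P15 to P21. The Nefh call from P7 to P10 was lost without P5 batch A replicate 1 or either P5 library of batch B. The ratio of Nefl to Nefm from P5 to P15 was -0.048 with P5 of batch A only, -0.056 from the edgeR changes and -0.034 to 0.088 with 1 library left out. Except where a covariate or fewer libraries were the change itself, the cause was not tested.

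The replicate block changed no call of a member. It gave -0.048 for the ratio of Nefl to Nefm from P5 to P15 over 3 pairs, and for 6 ratios in that design the smallest p is 0.25, so it tests nothing. Genes called from P21 to P28 numbered 39, and 19 with the replicate block or limma-voom, 11 without the batch term, 64 without a filter, 168 with DESeq2, 96 without batch B, 13 and 59 with the spectrin and CA pyramidal covariates, and 9 to 55 with 1 library left out. Genes called from P5 to P7 numbered 1698, and 3035 with total counts, 3586 without the batch term, 621 in batch B alone and 518 to 1848 with 1 library left out. Genes called from P10 to P15 numbered 670, and 405 without the batch term, 263 and 336 with the 2 covariates and 108 to 1473 with 1 library left out. With the spectrin covariate 3481 of 9442 were called from P5 to P10, 3049 of 9747 from P5 to P15 and 4887 of 11013 from P5 to P28. Total counts in place of TMM factors moved the median change of all genes from P5 to P15 from -0.02 to -0.14 and the share of rises among calls from 49.8% to 39.2%. From P5 to P7 that share moved from 55.7% to 18%, from P5 to P10 from 50.1% to 37.6%, and from P21 to P28 from 25.6% to 51.5%.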
